A study of Rattus norvegicus with 43 samples.

Results

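Pdk2 and Pdk4 encode pyruvate dehydrogenase kinases, and were followed here in liver, lung and mammary gland of rats given 1 of 3 retinoids. They were chosen by their signals in these same data, which were high in the Targretin livers, so the Targretin livers are described below and not tested. Every probe set that the platform annotation gives 1 of these symbols was taken: AF034577_at for Pdk4, and U10357_at and U10357_g_at for Pdk2. These are 3 of 8740 probe sets that are no controls, and 2 of 4736 named genes. The Entrez identifiers of the annotation, 89813 and 81530, carry the same symbols in RefSeq.

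Every group consisted of female rats of the outbred Sprague-Dawley stock, treated for 7 days from the age of 100 days. Targretin (bexarotene, which activates the retinoid X receptors) was given by gavage at 60 mg/kg BW. The other agents were mixed into the diet: 9-cis retinoic acid (9cRA, which activates both retinoic acid and retinoid X receptors) at 100 mg/kg diet, and 4-hydroxyphenylretinamide (4HPR, a retinamide with a hydroxyphenyl group) at 782 mg/kg diet. The controls had diet only, no gavage control is named, and doses and routes differ, so a difference between agents is one between these treatments as given. Each of the 43 arrays measured 1 sample, with 4 arrays in each of the 12 groups except 3 in the Targretin liver, lung and mammary gland, the diet lung and the 4HPR mammary gland groups. Nothing in the labels says that each array holds RNA from a separate rat, so p-values measure the spread between these samples, which may be technical.

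The pyruvate dehydrogenase complex in mitochondria turns pyruvate into acetyl-CoA and so joins glycolysis to the citric acid cycle and to fat synthesis. Pyruvate dehydrogenase kinases phosphorylate its E1 alpha subunit and switch the complex off, and pyruvate dehydrogenase phosphatases switch it back on. Pdk2 is the widely expressed kinase, and Pdk4 is known to rise in liver and muscle with fasting and with activation of the fatty acid receptor PPAR alpha, which pairs with a retinoid X receptor on DNA.

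The promoters of both genes are shown because both genes were high in the Targretin livers. Each run is the RefSeq window of 300 bases in the GRCr8 build, 250 before and 50 after the start site, 5′ to 3′ on the minus strand. The window of Pdk4 is chr4:34568280-34568579 and that of Pdk2 is chr10:80483863-80484162. The Pdk2 start site lies 76 bases inside the outer end of the RefSeq gene, and that of Pdk4 lies at it. Capitals mark every match, on either strand, to the nuclear receptor core motif AGGTCA, the CCAAT box CCAAT, the GC box GGGCGG, the E-box CACGTG and the TATA box TATAAA; no matches overlap.
Pdk4: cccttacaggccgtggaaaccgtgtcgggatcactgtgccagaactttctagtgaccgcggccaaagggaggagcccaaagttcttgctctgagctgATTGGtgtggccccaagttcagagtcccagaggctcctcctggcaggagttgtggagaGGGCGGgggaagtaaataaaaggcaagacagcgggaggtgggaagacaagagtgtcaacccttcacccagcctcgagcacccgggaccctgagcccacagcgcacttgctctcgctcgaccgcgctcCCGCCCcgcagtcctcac
Pdk2: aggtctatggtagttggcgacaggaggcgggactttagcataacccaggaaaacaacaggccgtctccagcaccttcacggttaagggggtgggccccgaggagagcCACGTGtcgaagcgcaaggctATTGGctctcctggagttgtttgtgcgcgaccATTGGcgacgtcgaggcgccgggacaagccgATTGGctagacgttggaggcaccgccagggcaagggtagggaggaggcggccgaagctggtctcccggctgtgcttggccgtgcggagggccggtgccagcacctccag
The Pdk4 window held 1 CCAAT box on the opposite strand, starting at -153 from the start site, and 2 GC boxes, at -95 and, on the opposite strand, at 33. The Pdk2 window held 3 CCAAT boxes, all on the opposite strand, at -122, -90 and -59, and an E-box at -143. Of all 33469 RefSeq promoter windows of this length, 37.5% held a CCAAT box, 33.1% a GC box, 6.42% an E-box, 16.2% the core motif AGGTCA and 14.2% a TATA box. Neither window held the letters AGGTCA or TATAAA, which says only that these letters are not in these bases. A pair of AGGTCA copies in 1 direction, 1 base apart, the arrangement known to bind PPAR with a retinoid X receptor, stood in 0.0538% of all windows and in neither of these. The G and C content was 61.3% for Pdk4 and 64.0% for Pdk2, against a median of 51.7% over all windows.

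Signals are MAS5 values in arbitrary units, scaled by the authors to a common mean per array. Changes are differences of log2(signal + 38.1) with their standard error, and folds are on that scale, which understates the change of dim probe sets. A call is a Benjamini-Hochberg adjusted p under 0.05 from limma, over all probe sets tested in that comparison. Testing in an organ required a signal over the array's 40th percentile on at least 3 arrays there. Both Pdk2 probe sets passed that filter in every organ. Pdk4 exceeded it on 12 of 15 liver, 6 of 14 mammary gland and 1 of 14 lung arrays, so it was tested within liver and mammary gland and not within lung. Comparisons between untreated organs took probe sets above the filter in either organ, so Pdk4 entered those with lung through the other organ. The filter counted treated arrays too. Pdk4 read at most 256.5 on diet mammary glands, where the 40th percentile was 211.3 to 287.9. It read at most 232.4 on diet lungs, where that percentile was 292.4 to 418.1. Pdk4 was thus near or below the filter on the untreated arrays of these organs. Levels are not compared between probe sets.

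The markers of each organ were high on its own arrays. Summed signals of the 8 hepatocyte markers were at least 368929 on every liver array, those of the 6 lung epithelial markers at least 212612 on every lung array, and those of the 8 mammary epithelial markers at least 96751.0 on every mammary gland array. Hepatocyte markers were also read outside liver. Their sums were 45375.4 to 86528.7 on diet mammary glands, against 377107 to 450314 on diet livers and 3595.8 to 33662 on diet lungs. In the mammary gland they were 27804.4 to 82253 with 9cRA, 43347 to 88479.8 with 4HPR and 3742.6 to 8016.3 with Targretin. Some arrays stood apart. Targretin mammary gland array 3 had a summed signal of 56890.5 for the 8 skeletal muscle markers on the array, against 1966.0 to 4066.9 on the other 13 mammary gland arrays. In lung, the hepatocyte sum was 103370 on 4HPR array 3, against 3595.8 to 33662.0 on the other 13 arrays, of which diet array 2 (33662.0) and 4HPR array 2 (31991.2) were next. An earlier analysis of these data put 4 arrays in doubt, namely array 2 of the diet livers, array 4 of the 4HPR livers, array 2 of the Targretin lungs and array 3 of the Targretin mammary glands, and results that turn on them are given without them as well.

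Without treatment, the Pdk2 signal was highest in liver on both of its probe sets. The U10357_at signal was 4224.5, 4489.4, 3862.0 and 3586.6 in diet livers, 1012.5, 914.0 and 903.5 in diet lungs, and 705.5, 379.2, 441.1 and 669.0 in diet mammary glands. The organs did not overlap, and their order was liver, lung, mammary gland. Liver exceeded lung by 2.05 ± 0.22 (adjusted p = 2.84e-10) and mammary gland by 2.84 ± 0.20 (adjusted p = 7.6e-15), and mammary gland lay below lung with a difference of -0.78 ± 0.22 (adjusted p = 0.0037). The last call ended with quantile normalization, at -0.454 (adjusted p = 0.084). The part of the hepatocyte markers on diet mammary gland and lung arrays in these and the following levels was not tested.

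U10357_g_at read 4558.6, 4402.0, 4568.8 and 4243.9 in diet livers, 919.7, 1564.6 and 1404.5 in diet lungs, and 1692.9, 1332.8, 1458.3 and 1938.9 in diet mammary glands. Liver exceeded lung by 1.78 ± 0.27 (adjusted p = 3.47e-07) and mammary gland by 1.46 ± 0.25 (adjusted p = 2.86e-06). Lung and mammary gland overlapped, at 0.32 ± 0.27 for mammary gland minus lung (adjusted p = 0.34), so the probe sets of Pdk2 do not give the same order of these organs.

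Pdk4 varied widely within each untreated organ. It read 382.0, 87.8, 417.0 and 430.1 in diet livers, 232.4, 34.9 and 38.7 in diet lungs, and 131.5, 136.5, 40.4 and 256.5 in diet mammary glands. Every pair of organs overlapped, and none differed beyond its spread: 1.50 ± 0.78 for liver minus lung (adjusted p = 0.10), 1.01 ± 0.72 for liver minus mammary gland (adjusted p = 0.24) and 0.49 ± 0.78 for mammary gland minus lung (adjusted p = 0.64). Liver minus lung passed without diet liver array 2, at 1.96 (adjusted p = 0.043), and without diet lung array 2, at 2.12 (adjusted p = 0.040). Of the 3 member probe sets, 2 passed between liver and lung, 2 between liver and mammary gland and 1 between mammary gland and lung, where 55.3%, 59.4% and 44.7% of all probe sets passed. Calls between organs were therefore common on the whole array.

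**Figure D1:**
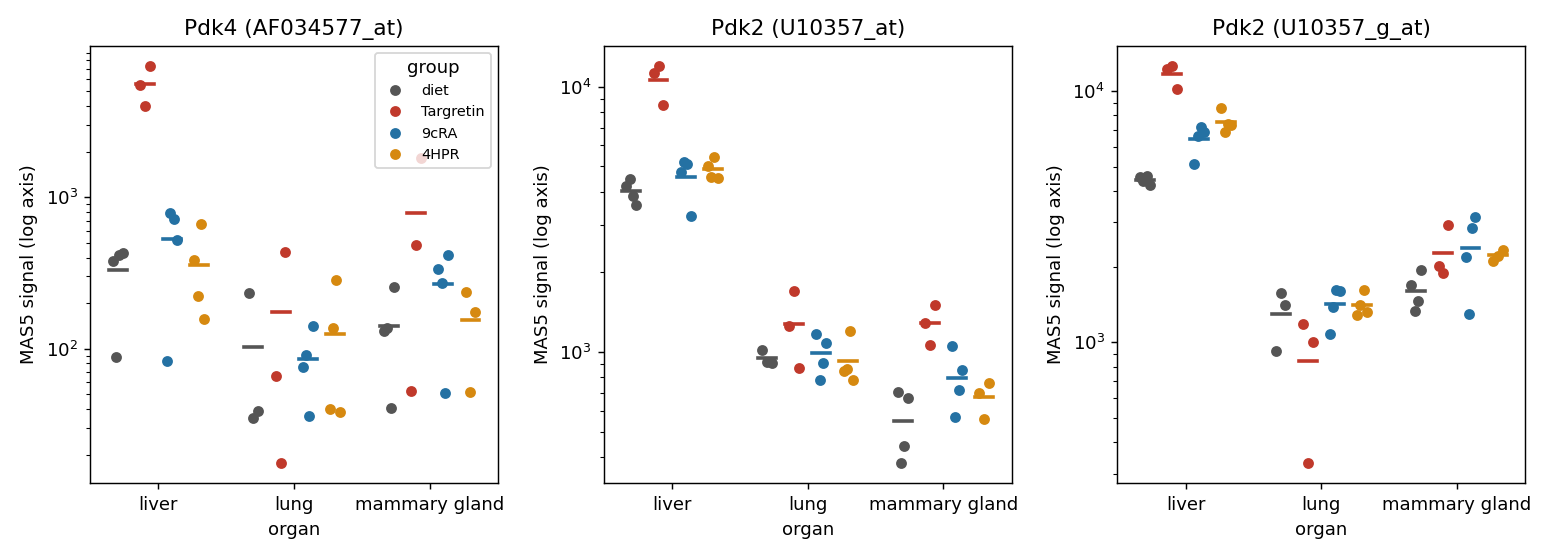
MAS5 signal (log axis) of the Pdk4 probe set and both Pdk2 probe sets on each of 43 arrays, by organ and group. Points are arrays and bars are group means; the Targretin livers stand above all other arrays in every panel, with Pdk4 at 3982 to 7377 there and at most 1829.4 elsewhere.

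In liver, the Targretin arrays are the ones that selected these genes, and their values are given with no test. Pdk4 read 5548.1, 3982.0 and 7377.0 on the 3 Targretin arrays, against the diet values above, a mean of 5636 ± 1699 (SD, n = 3) against 329 ± 162 (SD, n = 4). U10357_at of Pdk2 read 11233.2, 11969.0 and 8481.9, and U10357_g_at read 12238.1, 12598.2 and 10182.1. For each probe set the lowest Targretin liver was above the highest diet liver.

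Summed signals of lists named for other cell types also moved on these arrays, and 5 of the 10 marker lists did not overlap with diet. In liver some of these sums rested mostly on a single gene and do not stand for the named cells. The median over liver arrays was 10400 for Krt18 of the mammary epithelial list, against 24.3 for Lalba. Lep of the adipocyte list had similar medians in liver, lung and mammary gland (5235, 5439 and 5062), while Fabp4 had 16.1 in liver. Cidea of the brown adipocyte list had 570.8 in liver, against 100.6 for Ucp1. The erythroid sums, of 2 genes on the array, were 16517.9 to 31712.8 with Targretin against 37791.9 to 66645.5 with diet, and 0 of 2 genes passed by limma. The macrophage sums were 3234.3 to 5455.4 against 5676.2 to 7116.5, with 1 of 2 tested genes lower. The adipocyte sums were 7895.2 to 8674 against 5168.4 to 6952.5 (0 of 3 passed), the brown adipocyte sums 1159.2 to 2026.3 against 541.4 to 1063.2 (the 1 tested gene, Cidea, higher), and the mammary epithelial sums 12477.9 to 13676.9 against 8453 to 12257.8 (1 of 7 higher). Hepatocyte sums overlapped, with 0 of 8 passing. The part of these markers in the Targretin values was not tested.

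The differences between Targretin and diet livers were 4.08 ± 0.60 for Pdk4, 1.37 ± 0.17 for U10357_at and 1.38 ± 0.14 for U10357_g_at, or 16.9-fold, 2.58-fold and 2.60-fold. On these arrays, which chose the genes, the estimates of both Pdk2 probe sets were near each other and that of Pdk4 was larger. This describes the arrays and is not taken as support. In this comparison 11.1% of all probe sets passed; nothing is read from that here, since the comparison chose the members. Fewer cells of a type and less RNA per cell cannot be told apart in bulk tissue, here or in the results that follow.

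9cRA and 4HPR were compared with the same 4 diet livers that entered that choice. One probe set of Pdk2 rose with both agents, and the other did not pass with either. On the 4 arrays of 9cRA, U10357_g_at read 5135.8, 6613.9, 7181.7 and 6847.5, all above the highest diet liver. The rise was 0.52 ± 0.13 (1.44-fold; limma adjusted p = 0.021). Hepatocyte sums on these arrays were also above diet with no overlap, at 514069 to 604275 against 377107 to 450314, with 2 of 8 markers higher and 2 lower, and so were cardiac muscle sums, at 2032.5 to 2605.5 against 1611.8 to 1900.5, with 0 of 5 passing. On the 4 arrays of 4HPR it read 8552.5, 6839.2, 7358.5 and 7333.9, again with no overlap with diet, a rise of 0.75 ± 0.13 (1.68-fold; limma adjusted p = 0.0044). Of the 10 marker lists 1 did not overlap with diet there, the mammary epithelial one, at 12348.6 to 19498.2 (1 of 7 higher). Its sum in liver rested mostly on Krt18, as said above. The part of these markers in the calls was not tested.

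U10357_at, the other Pdk2 probe set, read 4741.2, 5191.2, 5102.7 and 3259.5 with 9cRA, which spans the diet values. It read 5005.9, 4550.3, 5443.4 and 4503.2 with 4HPR, where each array was just above the highest diet liver. The differences were 0.16 ± 0.16 (95% interval -0.17 to 0.49; adjusted p = 0.65) and 0.27 ± 0.16 (-0.06 to 0.60; adjusted p = 0.38). The call of U10357_g_at with 4HPR was kept when any 1 array was left out, with an adjusted p of at most 0.019. That with 9cRA ended on leaving out array 2, 3 or 4 of 9cRA or array 1, 2 or 4 of diet, at 0.466 to 0.534 with an adjusted p of 0.050 to 0.073.

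Pdk4 in liver spread too widely for a small change to be seen with these agents. It read 83.4, 792.5, 719.8 and 519.2 with 9cRA and 387.7, 221.2, 662.6 and 156.4 with 4HPR, and both ranges overlapped the diet values. The differences were 0.48 ± 0.56 (95% interval -0.70 to 1.66; adjusted p = 0.71) and 0.10 ± 0.56 (-1.07 to 1.28; adjusted p = 0.94). Without diet array 2 and 4HPR array 4 the difference with 4HPR was -0.0701. Of the 3 member probe sets 1 passed with 9cRA and 1 with 4HPR, where 5.16% and 2.78% of all probe sets passed.

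Set side by side in liver, Targretin exceeded 9cRA by 3.60 (95% interval 2.33 to 4.87) for Pdk4, by 1.21 (0.85 to 1.57) for U10357_at and by 0.86 (0.57 to 1.15) for U10357_g_at. It exceeded 4HPR by 3.97 (2.70 to 5.25), 1.10 (0.74 to 1.46) and 0.63 (0.34 to 0.92). These are descriptions, since the Targretin livers chose the genes. The intervals make no allowance for that choice, show only the spread of the arrays and are no test. Between 9cRA and 4HPR, 0 of the 3 member probe sets passed by limma, and 0 had an unadjusted p under 0.05, where 0.164% of all probe sets passed. The differences, 9cRA minus 4HPR, were 0.38 (-0.80 to 1.55) for Pdk4, -0.11 (-0.44 to 0.22) for U10357_at and -0.23 (-0.50 to 0.04) for U10357_g_at.

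**Figure D2:**
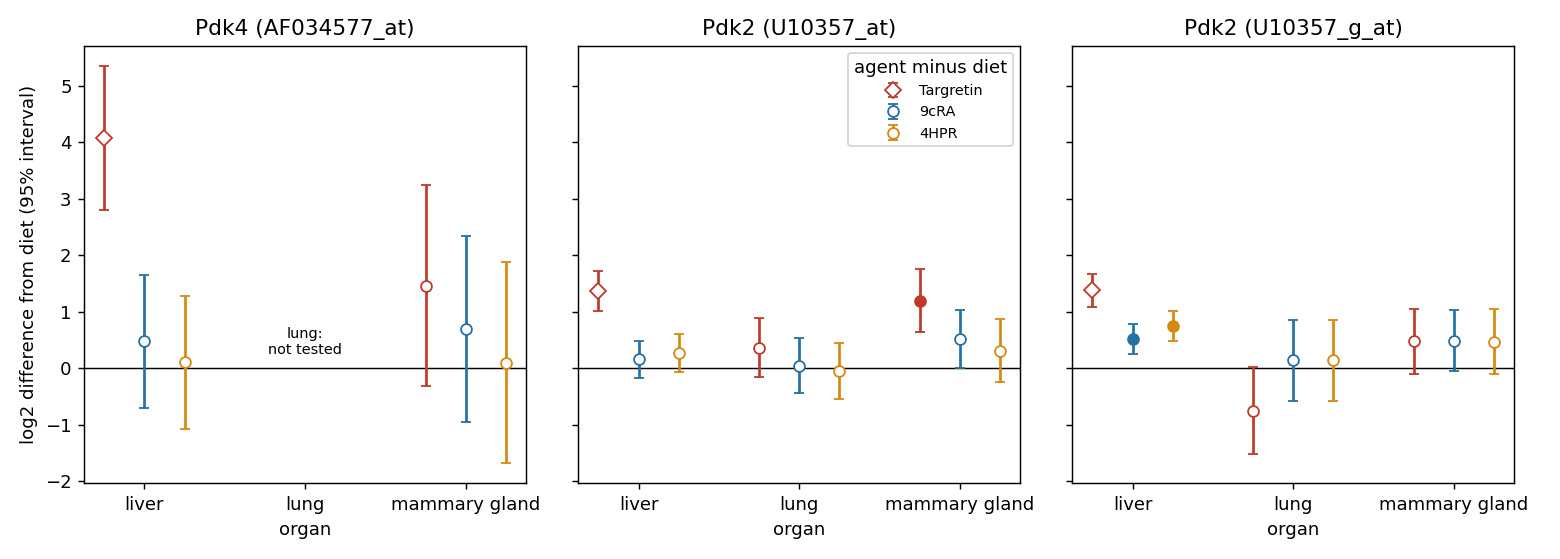
Log2 difference from diet (vertical axis, log2 units) with 95% intervals for each agent in each organ. Filled circles passed at an adjusted p under 0.05, open circles did not, and open diamonds are the Targretin livers that selected the genes. The intervals of the diamonds show spread and are no test. U10357_g_at passed with 9cRA (0.52) and 4HPR (0.75) in liver and U10357_at with Targretin in mammary gland (1.20).

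In the mammary gland, Targretin raised 1 probe set of Pdk2. U10357_at read 1287.2, 1056.5 and 1494.0 on the 3 Targretin arrays, all above the 4 diet arrays, of which the highest read 705.5. The mean was 1279 ± 219 (SD, n = 3) against 549 ± 163 (SD, n = 4), a rise of 1.20 ± 0.26 (2.29-fold; limma adjusted p = 0.010). The call was kept when any 1 array was left out, and was 1.08 (adjusted p = 0.046) without array 3, the array with the high muscle markers. Of the 10 marker lists 3 did not overlap with diet there, 1 of them the hepatocyte list given below. Mammary epithelial sums were higher, at 243868 to 350077 against 148407 to 236855 with diet, though 0 of 8 of these genes passed. Cardiac muscle sums were also higher, at 2190.5 to 2284.9 against 1703.5 to 2122, with 0 of 6 passing. The part of these markers in the rise was not tested.

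The other Pdk2 probe set did not pass there. U10357_g_at read 2006.9, 1884.8 and 2937.0, and the second of these lay within the diet range. The difference was 0.48 ± 0.27 (95% interval -0.10 to 1.06; adjusted p = 0.24).

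Pdk4 in the Targretin mammary glands read 52.7, 485.5 and 1829.4, which spans the diet values from below their median to above their maximum. The difference was 1.46 ± 0.84 (95% interval -0.32 to 3.25; adjusted p = 0.25). Array 3, at 1829.4, was the highest Pdk4 signal outside the Targretin livers, and it is also the array whose summed muscle markers were 56890.5. On that array the muscle actin gene Acta1 read 19046.9 and the fast myosin gene Myh4 read 14154.0, while their medians over the mammary gland arrays were 657.6 and 177.7. Myh1 of the same list did not stand out in this way, at 303.7 to 1126.8 over all mammary gland arrays. Without it the Pdk4 difference was 0.431 (adjusted p = 0.77), and without Targretin array 1 it was 2.61 (adjusted p = 0.042). The part of muscle RNA in this signal was not tested.

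Hepatocyte markers also moved with Targretin in the mammary gland. All 8 of 8 were lower there by limma, and their summed signal was 3743 to 8016 on Targretin arrays against 45375 to 86529 on diet arrays. Among them Alb, the serum albumin gene, stayed at 1496.7 or more on every mammary gland array, while Fgb, a fibrinogen chain, went down to 19.8. U10357_at of Pdk2, whose untreated signal was highest in liver, was the member probe set that passed on these arrays. The part of the hepatocyte markers in its result was not tested. The 3 adipocyte sums with Targretin were 97236.8 to 164326, and overlapped the diet range of 144672 to 202162.

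With 9cRA in the mammary gland, U10357_at read 1046.4, 568.2, 718.1 and 855.8 and overlapped diet, at 0.52 ± 0.24 (adjusted p = 0.27). U10357_g_at read 2186.6, 1298.7, 2851.8 and 3153.6, at 0.49 ± 0.25 (adjusted p = 0.30). Pdk4 read 336.0, 271.4, 51.3 and 415.9, at 0.69 ± 0.77 (adjusted p = 0.68). None of the 3 passed.

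With 4HPR, the 3 mammary gland arrays read 698.3, 557.7 and 763.7 for U10357_at, a difference of 0.31 ± 0.26 (adjusted p = 0.999). U10357_g_at read 2115.4, 2211.3 and 2320.4, each above the highest diet array, with a difference of 0.47 ± 0.27 (adjusted p = 0.999). Pdk4 read 235.7, 52.0 and 174.5, at 0.10 ± 0.84 (adjusted p = 0.999).

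By limma, 1 of the 3 member probe sets passed with Targretin in the mammary gland, where 13.1% of all probe sets passed, and 0 of 3 passed with 9cRA or with 4HPR, where 0% of all did. At an unadjusted p under 0.05 stood 1 of the 3 with 9cRA and 0 with 4HPR, against 1130 and 180 of all 6059. The 3 estimates of U10357_g_at against diet were 0.48, 0.49 and 0.47. Differences of that size did not pass with this spread.

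Between agents in the mammary gland, Targretin minus 4HPR was 0.89 (95% interval 0.29 to 1.48; adjusted p = 0.092) for U10357_at, with no overlap, and Targretin minus 9cRA was 0.68 (0.12 to 1.23; adjusted p = 0.35), also with no overlap. The first passed with array weights, at 0.748 (adjusted p = 0.037), and with only those groups in the fit (adjusted p = 0.045). For U10357_g_at all 3 differences between agents were within 0.03 of 0 (intervals from -0.60 to 0.63), and for Pdk4 they ran from 0.59 to 1.36 with intervals that include 0. In all, 0 of 3 member probe sets passed in any of the 3 pairs by limma, with 1, 1 and 0 at an unadjusted p under 0.05 for Targretin against 9cRA, Targretin against 4HPR and 9cRA against 4HPR. Of all probe sets, 2.05%, 4.23% and 0.0495% passed in these pairs.

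Lung gave no call for either gene. Pdk4 in lung was below the filter, and read 66.2, 17.5 and 437.4 with Targretin, 75.7, 90.7, 35.9 and 141.0 with 9cRA, and 39.7, 136.8, 284.4 and 38.4 with 4HPR. All groups overlapped the diet arrays. The arrays at 284.4 and, in the diet group, 232.4 have the highest hepatocyte sums in lung. The next, 4HPR arrays 2 and 4, at 31991.2 and 22431.4, read 136.8 and 38.4 for Pdk4. Targretin array 3, with the highest Pdk4 signal in lung, had a hepatocyte sum of 6051.9 and a muscle sum of 1566.5, both among the low values for lung. Its T and B cell sum, 7043.1, was the highest in lung. With Targretin 2 of the 10 marker lists did not overlap with diet. T and B cell sums were 5075.4 to 7043.1 against 2807.1 to 4850.1 (1 of 5 higher). Adipocyte sums were 9485.8 to 16055.2 against 7810.7 to 9373.3 (0 of 4 passed). The part of RNA from any of these cell types in the Pdk4 signals was not tested.

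The Pdk2 probe sets pointed in opposite directions with Targretin in lung, and neither passed. U10357_at read 1253.2, 1690.8 and 868.1, at 0.37 ± 0.25 (adjusted p = 0.38). U10357_g_at read 1185.8, 329.6 and 1005.0, at -0.75 ± 0.36 (adjusted p = 0.22). The split was widest on array 2, where U10357_at was the highest of the 14 lung arrays and U10357_g_at the lowest. That array also had the highest sums in lung for cardiac muscle (9704.5, against at most 7137.5 on the other 13 arrays), skeletal muscle (2787.2 against 2311.0), adipocyte (16055.2 against 12772.7), macrophage (190996 against 176265) and lung epithelial markers (379079 against 329261), and their part in the split was not tested. Without array 2 the difference of U10357_g_at was -0.206 (adjusted p = 0.63).

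The other agents left Pdk2 in lung within 0.15 of diet. With 9cRA, U10357_at read 1170.2, 784.2, 906.9 and 1082.3 (difference 0.05 ± 0.23) and U10357_g_at read 1075.9, 1383.2, 1610.9 and 1602.1 (0.14 ± 0.34). With 4HPR they read 849.2, 861.0, 1195.7 and 783.6 (-0.05 ± 0.23), and 1288.9, 1409.2, 1613.7 and 1319.8 (0.14 ± 0.34). The 95% intervals reached from -0.57 to 0.86 at the widest, so a change of the size seen for U10357_g_at in liver was not excluded by them.

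By limma, 0 of the 2 Pdk2 probe sets passed in lung against diet with any agent, and 0 had an unadjusted p under 0.05. Of all probe sets, 2.39% passed with Targretin and 0% with 9cRA or 4HPR, with 656 and 273 of 5935 at an unadjusted p under 0.05 for the last 2. Between agents, U10357_g_at was lower with Targretin than with 9cRA and 4HPR by estimates of -0.89 and -0.89 (adjusted p = 0.38 and 0.15), 1 of 2 at an unadjusted p under 0.05 in each pair, and 0 of 2 passed in any pair. Of all probe sets, 0.0168% passed for Targretin against 9cRA, 1.45% for Targretin against 4HPR and 0% for 9cRA against 4HPR, the last with 566 at an unadjusted p under 0.05.

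For the Pdk2 probe sets, the fit of all 43 arrays also tested the difference of a change against diet from 1 organ to another. The change with Targretin in mammary gland exceeded that in lung by 1.23 ± 0.39 for U10357_g_at (adjusted p = 0.049) and by 0.83 ± 0.32 for U10357_at (adjusted p = 0.12), so 1 of 2 passed where 6.52% of all 5120 probe sets did. The call rested on single arrays: without Targretin lung array 2 it was 0.686 (adjusted p = 0.28), and without all 4 arrays in doubt 0.491 (adjusted p = 0.52). It was also lost without diet lung array 3 or 4, diet mammary gland array 2 or 3, or Targretin mammary gland array 1 or 3, at 1.03 to 1.30 (adjusted p = 0.058 to 0.15).

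For 9cRA and 4HPR, 0 of 2 Pdk2 probe sets passed by limma for any pair of organs, and 0 had an unadjusted p under 0.05. The rise of U10357_g_at in liver was therefore not shown to differ from its change elsewhere: with 4HPR it exceeded lung by 0.61 (95% interval -0.13 to 1.34) and mammary gland by 0.28 (-0.45 to 1.01). With 9cRA these were 0.38 (-0.35 to 1.11) and 0.03 (-0.67 to 0.73). Of all probe sets, 0.0195% passed for 9cRA between liver and lung, 1.21% between liver and mammary gland and 0% between mammary gland and lung. For 4HPR the shares were 0%, 0.0195% and 0%. At an unadjusted p under 0.05 stood 378 for 9cRA between mammary gland and lung, and 358 and 198 for 4HPR between liver and lung and between mammary gland and lung.

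Pdk1, another kinase of the complex, was higher in the livers of every treated group. Its probe set L22294_at read 503.5, 362.8, 547.0 and 427.6 in diet livers and 808.6 to 1337.0 in all 11 treated livers, with no overlap. It rose by 1.21 ± 0.22 with Targretin (limma adjusted p = 0.0012), by 1.10 ± 0.20 with 9cRA (adjusted p = 0.0046) and by 1.10 ± 0.20 with 4HPR (adjusted p = 0.0071). These 3 comparisons share the 4 diet livers.

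The agents could not be ordered by Pdk1. The difference was 0.11 between Targretin and 9cRA (95% interval -0.34 to 0.57; adjusted p = 0.88), 0.11 between Targretin and 4HPR (-0.35 to 0.57; adjusted p = 0.81) and 0.00 between 9cRA and 4HPR (-0.43 to 0.42; adjusted p = 0.995), where 5.72%, 7.87% and, as above, 0.164% of all probe sets passed. In the mammary gland Pdk1 read 1011.3 to 1153.7 on diet arrays and 679.2 to 1626.7 on treated ones and did not pass with any agent, and in lung it was below the filter.

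A phosphatase and 1 subunit of the complex, Pdp2 and Dlat, also rose in the Targretin livers. Pdp2, the phosphatase that reverses the kinases, rose by 0.90 ± 0.18 on AF062741_g_at (adjusted p = 0.0036), and its other probe set, AF062741_at, gave 1.62 ± 0.53 (adjusted p = 0.060). The latter passed without diet liver array 2, at 2.01 (adjusted p = 0.023), and also with array weights, with only the groups compared, with the larger pseudocount and with quantile normalization, at 1.33 to 1.80 (adjusted p = 0.0078, 0.027, 0.032 and 0.042). Dlat, the E2 acetyltransferase of the complex, rose on all 3 of its probe sets: 1.02 ± 0.23 on D00092_s_at (adjusted p = 0.0080), 0.81 ± 0.23 on D10655_at (adjusted p = 0.030) and 0.84 ± 0.22 on D10655_g_at (adjusted p = 0.020). Every one of these lost its call without Targretin array 1 (adjusted p = 0.062, 0.17 and 0.13). D10655_at also lost it with only the groups compared (adjusted p = 0.067), and without diet array 1, 2 or 3, and D10655_g_at without diet array 1 or Targretin array 2, at an adjusted p of 0.050 to 0.092.

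The E1 subunits did not pass, among them E1 alpha, which the kinases phosphorylate. In Targretin livers Pdha1, E1 alpha, gave 0.22 ± 0.16 on rc_AA799598_at and -0.03 ± 0.30 on Z12158cds_at. Pdhb, E1 beta, gave 0.34 ± 0.20 on rc_AA892828_at and 0.00 ± 0.55 on rc_AA892828_g_at, and Pdhx, the E3-binding component, gave -0.18 ± 0.21. Pdp1, a second phosphatase, and Pdha2, the testis form of E1 alpha, were below the filter in liver.

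The lists that follow were chosen with earlier results of these data known, so their counts are descriptions. Counted with 1 probe set per gene, the complex and its regulators had 13 listed genes, 10 on the array and 8 tested in liver. Of the 6 other than Pdk2 and Pdk4, 3 rose with Targretin (Pdk1, Pdp2 and Dlat) and 0 fell, with a median of 0.58 against -0.02 over all probe sets, of which 11.1% passed. With 9cRA and with 4HPR 1 of these 6 passed, Pdk1 in both cases, with medians of 0.11 and 0.13 against -0.01 and -0.11 over all, and 5.16% and 2.78% of all passed. With Pdk2 counted, in lung 0 of 7 passed with any agent by limma, with 2, 1 and 0 at an unadjusted p under 0.05 for Targretin, 9cRA and 4HPR. In mammary gland 0 of 9 passed, with 0, 1 and 0 at that level; Pdk2 enters this count as U10357_g_at, its brighter probe set, and not as U10357_at.

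**Figure D3:**
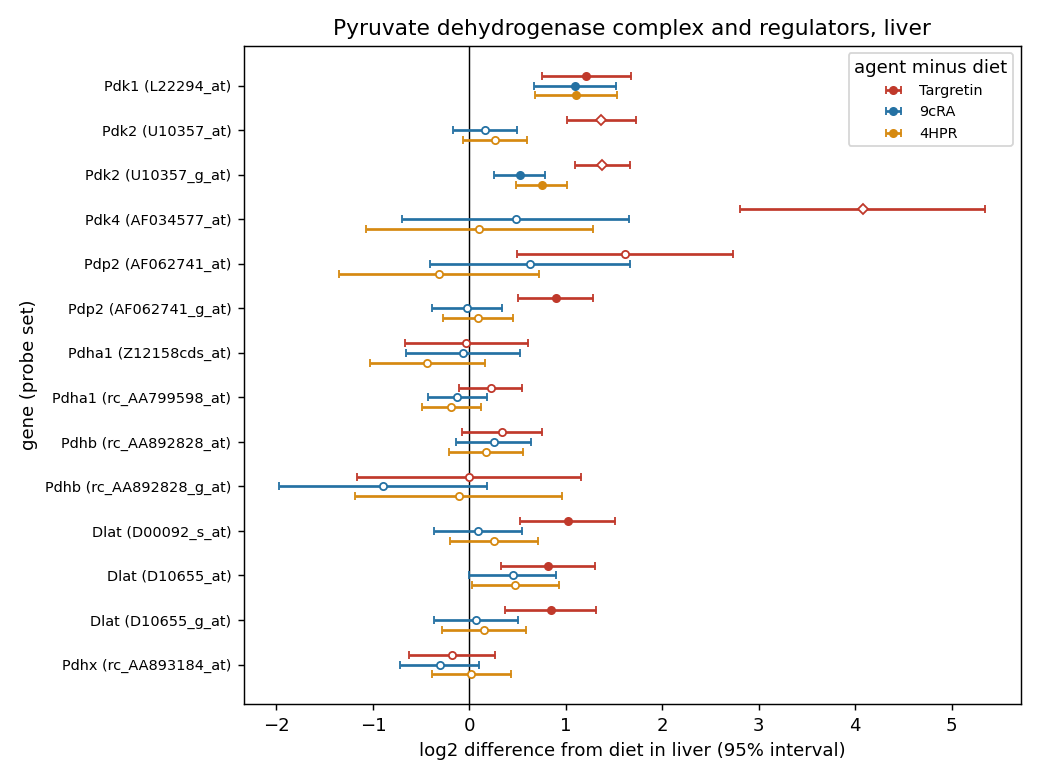
Log2 difference from diet in liver (horizontal axis, 95% intervals) of the probe sets of the pyruvate dehydrogenase complex and its regulators that were tested. Filled circles passed, open circles did not, and diamonds are the Targretin values that chose Pdk2 and Pdk4. The intervals of the diamonds show spread and are no test. Pdk1 lies near 1.1 to 1.2 with all 3 agents. With Targretin, every Dlat probe set and AF062741_g_at of Pdp2 are filled, and AF062741_at of Pdp2 is open.

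Of 13 tested genes of pyruvate supply and use, 1 rose and 1 fell in Targretin livers, a share near the 11.1% of all probe sets that passed. Me1, malic enzyme, which makes pyruvate and NADPH, rose by 1.91 (adjusted p = 7.51e-05), and Mpc1, a subunit of the mitochondrial pyruvate carrier, fell by 0.48 (adjusted p = 0.049). With no filter, and without the 4 arrays in doubt, 1 of the list passed. None of the 13 passed with 9cRA or 4HPR by limma, where 5.16% and 2.78% of all passed, with 1 and 3 at an unadjusted p under 0.05. None passed in lung (0 of 11) or mammary gland (0 of 12), where Targretin had 5 and 4 at that level. Of the related branched-chain ketoacid dehydrogenase and its kinase, 0 of 2 tested genes passed in liver or lung and 0 of 3 in mammary gland with any agent, with 1 at an unadjusted p under 0.05 in liver with each of 9cRA and 4HPR.

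The PPAR target genes of fatty acid use, which include known neighbours of Pdk4 in the fasting response, showed 14 of 26 higher and 0 lower in Targretin livers, where 11.1% of all probe sets passed, with a median of 0.60 against -0.02 over all. This count is a description, since the list was chosen with earlier results of these data known. Acaa1b, a peroxisomal thiolase, rose by 4.39, Acot1, a cytosolic acyl-CoA thioesterase, by 8.46, Ehhadh, the peroxisomal bifunctional enzyme, by 2.72 and Plin2, a lipid droplet coat protein, by 2.41 (adjusted p = 6.82e-08, 1.2e-07, 9.14e-07 and 2.56e-06). With 9cRA 1 of 26 passed, where 5.16% of all did: Plin2 at 0.75 (adjusted p = 0.049), and 0 with no filter or without the arrays in doubt. With 4HPR 1 rose, Acot1 by 2.34 (adjusted p = 0.038), and 2 fell, Acadm and Hadhb, mitochondrial enzymes of beta oxidation, which fell by 0.64 and fell by 0.65 (adjusted p = 0.0080 and 0.012). These are 3 of 26, where 2.78% of all passed. The median with 4HPR was -0.33, against -0.11 over all, and 5 of the list passed with quantile normalization.

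In Targretin lungs 1 of 27 rose, where 2.39% of all passed: Acot1 by 2.77 (adjusted p = 0.046); with no filter, with quantile normalization or without the arrays in doubt 0 passed there. In Targretin mammary glands 5 of 27 passed, where 13.1% of all did: 1 rose, Acadvl by 1.29 (adjusted p = 0.047), and 4 fell. Fabp1 fell by 6.20, Cyp4a1 fell by 2.65, Eci1 fell by 0.79 and Decr1 fell by 0.59 (adjusted p = 3.4e-07, 0.0013, 0.028 and 0.031). Fabp1 and Cyp4a1 are abundant in hepatocytes, whose markers fell on the same arrays as given above. The part of hepatocyte RNA in these falls was not tested.

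Of 12 transcriptional regulators known for Pdk genes, 1 rose and 1 fell in Targretin livers, where 11.1% of all probe sets passed. Rxrg, a retinoid X receptor, rose by 0.60 (adjusted p = 0.024), and Nr3c1, the glucocorticoid receptor, fell by 0.87 (adjusted p = 0.015). Nr3c1 also fell by 0.85 with 4HPR (adjusted p = 0.033; 1 of 12, where 2.78% of all passed), and no gene of the list passed with 9cRA, with 3 at an unadjusted p under 0.05. Stat5b rose in Targretin lungs, by 0.88 (adjusted p = 0.045), the sole one of 12 to pass there, where 2.39% of all did. Counts of 1 or 2 of 12 are close to these shares. The calls of Nr3c1 with 4HPR and of Stat5b were lost with no filter, with quantile normalization and without the arrays in doubt. In mammary gland 0 of 13 passed with any agent by limma, with 3, 2 and 0 at an unadjusted p under 0.05 for Targretin, 9cRA and 4HPR, and 1 passed with Targretin under no filter or quantile normalization.

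**Figure D4:**
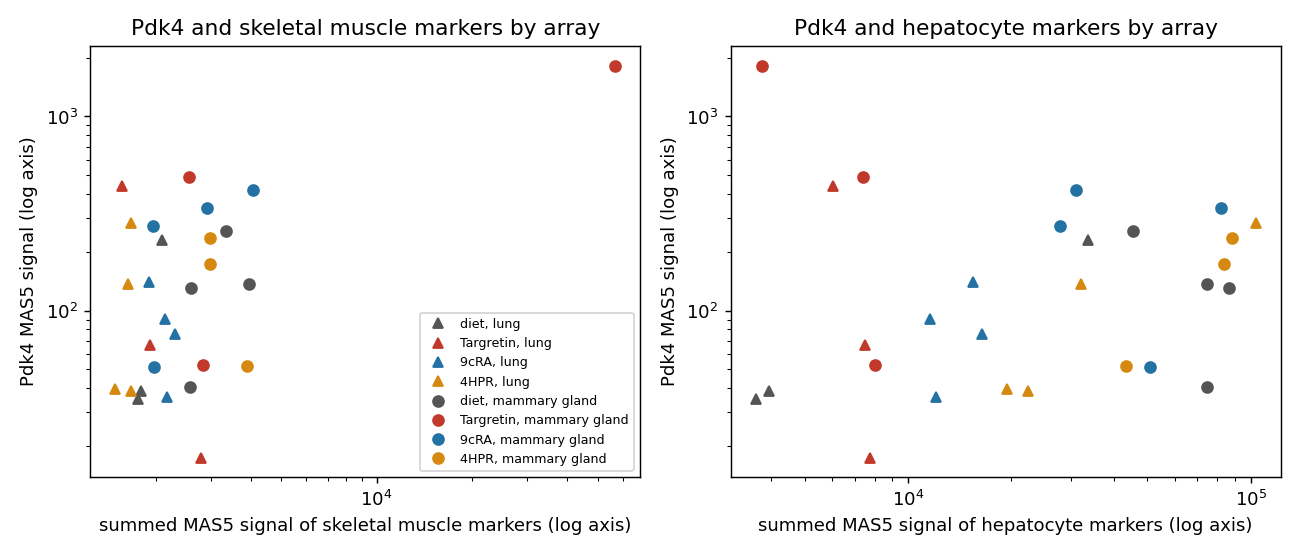
Pdk4 MAS5 signal against the summed MAS5 signal of skeletal muscle markers (left) and hepatocyte markers (right) on each lung (triangle) and mammary gland (circle) array, both axes logarithmic. Targretin mammary gland array 3 is alone at the top right of the left panel, at 56890.5 and 1829.4.

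The genes whose signals ran most like these were named by Pearson r, as a description and with no test; the points share organ and treatment, and the Targretin livers weigh on all of them. Over the 8 group means of liver and mammary gland, Pdk4 ran most like Acat1 (r = 0.98), Scd2 (0.979), Paqr7 (0.969), Fasn (0.958) and Ccnd1 (0.953), among 4463 probe sets. Over the 29 arrays with the organ mean taken away these were Acsm3 (0.742), Fasn (0.72), Ccnd1 (0.718), Cds1 (0.718) and Fbp2 (0.716). Fasn, the fatty acid synthase, and Ccnd1, cyclin D1, were on both lists, Ccnd1 with different probe sets.

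For U10357_at of Pdk2, the 12 group means ran most like those of Kyat1 (0.986), Acads (0.972), Pgm1 (0.969), Pcyt2 (0.968) and Acadvl (0.967), among 4221 probe sets. Over 43 arrays with the organ mean taken away, the most alike were Alpl (0.805), Chkb (0.773), Fasn (0.771), Rab14 (0.735) and Me1 (0.732). For U10357_g_at they were 2 probe sets of Acat2 (0.977 and 0.973), Ehhadh (0.966), Aldh1l1 (0.965) and Fdx1 (0.961) over group means, and Exoc2 (0.696), Decr2 (0.682), Me1 (0.635), Atp1b1 (0.622) and Fasn (0.608) over arrays. The probe sets of Pdk2 shared no gene over group means, and Fasn and Me1 over arrays.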

How the data were processed

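RNA of 43 samples was hybridised to Affymetrix rat genome arrays. The authors deposited intensity values from MAS5, per the submitters' processing notes; the MAS5 version is not given in the sources used here. Their 2% trimmed mean was 1501.78 to 1503.29 on every array, so no scaling was added. The number of arrays limits the precision. The 59 control probe sets were left out. Signals were converted to log2(signal + 38.1), the 10th percentile of all values. The filter left 6084 probe sets for liver, 5935 for lung and 6059 for mammary gland. Each organ was fitted with limma 3.58.1 in R 4.3.3 (lmFit, eBayes with trend) over its 4 groups. Diet organs and differences of change between organs came from a fit of all 43 arrays; changes needed a probe set above the filter in all organs, which left 5120. The procedure was tested on simulated data. The members, lists, markers and the rule for named genes (both members, the complex list wherever measured, at most 4 passing genes of each other list by smallest p, and the 5 most alike probe sets) were chosen with earlier results of these data known. A list counts each gene by its brightest probe set. The alternatives were quantile normalization, no filter, a pseudocount 4 times larger, array weights, a replicate block, only the groups compared, and leaving out single arrays or 4 arrays in doubt.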

Additional observations from a re-analysis of the deposited data

Results flagged for a closer look

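Of the 21 sets of 4 arrays checked for the members, 1 held an array far from the others: Pdk4 on diet liver array 2 read 87.8, with the other 3 diet livers at 382.0 to 430.1. Chance alone flags about 1 in 20 such sets. The change of U10357_g_at of Pdk2 with Targretin differed between mammary gland and lung, by 1.226 on the log2 scale (limma adjusted p = 0.049), and that call rests on Targretin lung array 2 as given above.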

How the results depend on the processing

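For the tested results of the members, 892 of 966 alternative values kept direction and call; 47 reversed, none of a result that had passed, at an adjusted p of 0.761 or more. Of 204 alternative values of the untested results (Targretin livers and Pdk4 in lung), 19 changed sign, all of them Pdk4 in lung. The counts of the complex list stayed within 1.5 times of the reported ones in all 32 alternatives. Why the others changed was not tested. Reversed values by setting were: with array weights, U10357_g_at at -0.0013 (4HPR minus diet, lung), 0.0527 (9cRA minus 4HPR, lung), 0.0514 and -0.0691 (Targretin minus 9cRA and minus 4HPR, mammary gland) and -0.121 (9cRA minus 4HPR, mammary gland); with quantile normalization, U10357_at at -0.0368 (9cRA minus diet, lung) and U10357_g_at at -0.00641 (Targretin minus 4HPR, mammary gland) and -0.00636 (9cRA change, liver minus mammary gland); with the larger pseudocount, U10357_at at 0.00504 (4HPR change, liver minus mammary gland). Without the 4 arrays in doubt they were -0.0701 (Pdk4, 4HPR minus diet, liver), -0.264 (Pdk4, Targretin minus 9cRA, mammary gland), -0.184 (U10357_g_at, Targretin minus 4HPR, mammary gland) and 0.048 (U10357_at, 4HPR change, liver minus mammary gland).

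Calls gained were U10357_at for Targretin minus 4HPR in mammary gland (0.748 with array weights, 0.886 with only the groups compared) and Pdk4 for diet liver minus lung (2.21 with array weights, 1.5 with only the groups compared, 1.96 without the arrays in doubt). Calls lost were U10357_at for diet mammary gland minus lung (-0.454, quantile) and U10357_g_at for the Targretin change in mammary gland minus lung (0.941 with array weights, 1.23 with no filter and with only the groups compared, 1.1 with the larger pseudocount, 0.491 without the arrays in doubt).

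Leaving out 1 array moved 43 of the 62 tested member results by over 1.5 times or changed their sign; 1 of the 43 had passed, U10357_g_at for the Targretin change in mammary gland minus lung. For Pdk4 the ranges include 0.0225 to 1.11 (9cRA minus diet) and 0.0855 to 1.01 (9cRA minus 4HPR) in liver, 0.347 to 1.21 (9cRA minus diet), 0.118 to 1.11 (9cRA minus 4HPR) and 0.328 to 2.51 (Targretin minus 4HPR) in mammary gland, and, between diet organs, 0.662 to 1.47 (liver minus mammary gland) and 0.167 to 1.11 (mammary gland minus lung). In liver, other ranges were 0.466 to 0.626 for U10357_g_at with 9cRA, -0.353 to 0.387 for Pdk4 with 4HPR, and -0.179 to 0.0426 for U10357_at, 9cRA minus 4HPR. In lung, against diet, U10357_at ran from -0.0378 to 0.147 with 9cRA and from -0.174 to 0.0212 with 4HPR, and U10357_g_at from -0.08 to 0.291 and from -0.0779 to 0.294; 9cRA minus 4HPR ran from -0.0678 to 0.121. In mammary gland, Pdk4 ran from 0.431 to 2.61 with Targretin, from -0.245 to 0.577 with 4HPR and from -0.264 to 1.92 for Targretin minus 9cRA; U10357_g_at ran from -0.27 to 0.148 (Targretin minus 9cRA), -0.184 to 0.131 (Targretin minus 4HPR) and -0.137 to 0.282 (9cRA minus 4HPR). Between organs, they were 1.18 to 2.12 for Pdk4 in diet liver minus lung, -0.228 to 0.19 for U10357_g_at (9cRA change, liver minus mammary gland), -0.169 to 0.109 for U10357_at (4HPR change, liver minus mammary gland) and 0.686 to 1.55 for U10357_g_at (Targretin change, mammary gland minus lung).

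Arrays of the same number were not paired, since their residuals had median correlations of -0.000861 (liver), 0.0256 (lung) and 0.0124 (mammary gland), and, across organs within an agent, 0.115 (liver and lung; -0.0557 to 0.297), 0.0429 (liver and mammary gland; -0.0933 to 0.0931) and 0.0633 (mammary gland and lung; -0.246 to 0.224). With the number as a replicate block, all 77 member results kept their direction and the 62 with a test their call; U10357_g_at in liver was 0.522 (adjusted p = 0.025) with 9cRA and 0.75 (adjusted p = 0.0057) with 4HPR. Under quantile normalization the median over all probe sets went from -0.105 to -0.00293 for 4HPR in liver, from 0.111 to 0.011 for Targretin in mammary gland and from 0.139 to 0.0308 for Targretin minus 4HPR there.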
